A study of Mus musculus with 7 samples.

Results

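The integrated stress response and the unfolded protein response were examined in whole SLMAP3 KO and WT mouse embryos through 10 genes chosen by name, *Atf4*, *Ddit3*, *Xbp1*, *Trib3*, *Chac1*, *Asns*, *Psat1*, *Phgdh*, *Hspa5* and *Herpud1*. They occupied 11 of the 25461 rows of the expression table, since *Ddit3* had 2 rows. All 11 rows had a mean of at least 1 FPKM (fragment counts corrected for transcript length and sequencing depth) and were tested. RNA sequencing was performed on 7 single embryos of the strain B6C3F1 at E11.5, 3 KO (KOAC8-6, KOAC10-5 and KOAC10-8) and 4 WT (KOAC8-1, KOAC10-7, KOAC9-1 and KOAC10-2). The tail of each embryo was removed for genotyping and the rest was used for RNA. The KO embryos were homozygous for a global deletion of exon 3 of *Slmap*, made with CMV-cre and then bred free of cre, which removes the SLMAP3 isoform and leaves SLMAP1 and SLMAP2. WT embryos came from the same breeding scheme.

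Both responses adjust protein synthesis and folding to stress. In the integrated stress response, kinases that sense amino acid shortage, heme shortage, viral RNA or misfolded protein in the endoplasmic reticulum (ER) phosphorylate the translation factor eIF2, which lowers general translation while favouring translation of the transcription factor ATF4. ATF4 in turn activates genes for amino acid synthesis and uptake, aminoacyl-tRNA synthetases and the factor CHOP, encoded by *Ddit3*. In the unfolded protein response, the ER sensors PERK, IRE1 and ATF6 raise the folding capacity of the ER, through ATF4, through the spliced form of *Xbp1*, and through cleaved ATF6 acting on ER stress elements in the promoters of chaperone genes. Much of this control is exerted on translation, splicing and cleavage, so that RNA levels per gene do not report the activity of ATF4, XBP1 or ATF6 directly. In whole embryos, fewer cells of a type and less RNA per cell cannot be told apart.

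The promoters of 4 of the 10 genes carried an exact match to a known response element, and they are shown because their genes differed in direction in 1 embryo. RefSeq promoters (GRCm38.p6, 250 bases before the start) were found for all 10 genes and searched on both strands for the C/EBP-ATF response element (CARE, TGATGNAA), the ER stress element (ERSE, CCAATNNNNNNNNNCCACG) and ERSE-II (ATTGGNCCACG). These motifs were present in 3.45%, 0.113% and 0.0304% of 32851 mouse promoters of the same length. In the sequences, written 5′ to 3′ on the strand of the gene, capitals mark the matches. With positions counted back from the start, a CARE lay at −193 to −186 of *Chac1*, on the opposite strand (chr2:119350992-119351228, plus strand). *Herpud1* had a CARE on the opposite strand at −112 to −105, and an ERSE-II at −52 to −42 (chr8:94386179-94386428, plus strand). *Asns* had a CARE at −23 to −16 (chr6:7693214-7693243, minus strand) and *Hspa5* an ERSE at −65 to −47 (chr2:34772020-34772049, plus strand), each shown with its flanks.
Chac1 promoter: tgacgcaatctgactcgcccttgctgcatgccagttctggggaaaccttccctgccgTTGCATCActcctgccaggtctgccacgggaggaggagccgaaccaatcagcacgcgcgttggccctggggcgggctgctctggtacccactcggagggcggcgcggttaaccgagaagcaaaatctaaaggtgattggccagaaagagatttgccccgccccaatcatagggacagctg
Herpud1 promoter: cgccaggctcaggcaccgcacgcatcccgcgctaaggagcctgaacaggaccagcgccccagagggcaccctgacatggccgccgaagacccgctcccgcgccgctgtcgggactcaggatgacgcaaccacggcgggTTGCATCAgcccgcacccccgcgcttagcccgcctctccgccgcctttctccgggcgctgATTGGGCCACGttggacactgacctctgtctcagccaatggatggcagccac
Asns promoter, CARE with flanks: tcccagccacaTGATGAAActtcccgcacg
Hspa5 promoter, ERSE with flanks: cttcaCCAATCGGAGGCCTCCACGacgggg
These letters were not found in the windows of the other members. A match describes the sequence and not the binding of a factor.

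The embryos were comparable in depth, and the targeted gene followed the labels. The relative depth, read from the steps between low FPKM values, ran from 0.81 to 1.21 of the average. The number of reads per embryo was not used here. *Slmap*, counted over all its isoforms, was at 16.01 to 19.6 FPKM in KO and at 22.8 to 31.2 FPKM in WT, without overlap (log2 fold change −0.59 ± 0.13 SE; adjusted p = 0.278 in limma). The embryos differed in their content of liver transcripts. *Afp*, a marker of hepatocytes and visceral endoderm, was between 255 and 376 FPKM in KOAC8-6, KOAC10-8, KOAC8-1 and KOAC9-1, but at 5.18, 1.30 and 2.49 FPKM in KOAC10-5, KOAC10-7 and KOAC10-2. Marker sums of other cell types differed between the genotypes. The summed FPKM of 7 later erythroid markers was 5607 to 6193 in KO and 8640 to 16720 in WT, that of 8 skeletal muscle markers 234 to 297 and 402 to 570, and that of 7 matrix-secreting mesenchyme markers 971 to 1185 and 1256 to 1424. The sum of 7 neural progenitor markers, to which *Fabp7* contributed most, overlapped at 765 to 881 and 684 to 781. Of these 7, however, 6 were higher in KO at an unadjusted p under 0.05, against 849 of all 16095 genes tested. *Sox2*, *Pax6*, *Nes* and *Msi1* were higher in every KO than in every WT embryo, against 5.61% of all genes. KOAC10-8 was highest in 6 of the 7 markers, against 26.4% of all genes. The sum of 6 macrophage markers overlapped, at 28.9 to 32.8 and 28.9 to 39.4. The part of these cell types in the results was not tested.

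None of the 11 rows passed an adjusted p of 0.05 between KO and WT embryos, while 1 KO embryo, KOAC10-8, stood apart from the other 6 in most of them. This embryo had the highest value of all 7 embryos in 9 of the 11 rows and the lowest in the remaining 2, *Xbp1* and *Hspa5*. Over all genes tested it was the highest embryo in 26.4% and the lowest in 19.1%. In 7 of the 11 rows its FPKM + 1 was at least 1.5 times that of every other embryo, which was the case for 80 of the 16095 genes tested, or 0.497%. In each of the other embryos, 17 to 35 genes exceeded all others by that fold. Later counts of genes at 1.5 times every other embryo also use FPKM + 1. KOAC10-8 was singled out after its values were seen, so its difference from the other embryos is given without a test. Across the table, 0.0373% of genes passed the adjusted threshold (limma on log2(FPKM + 1), Benjamini-Hochberg) and 11.5% had an unadjusted p under 0.05, and no member passed either. The dot plot of the 10 genes in each embryo shows both sides of this pattern.

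**Figure D1:**
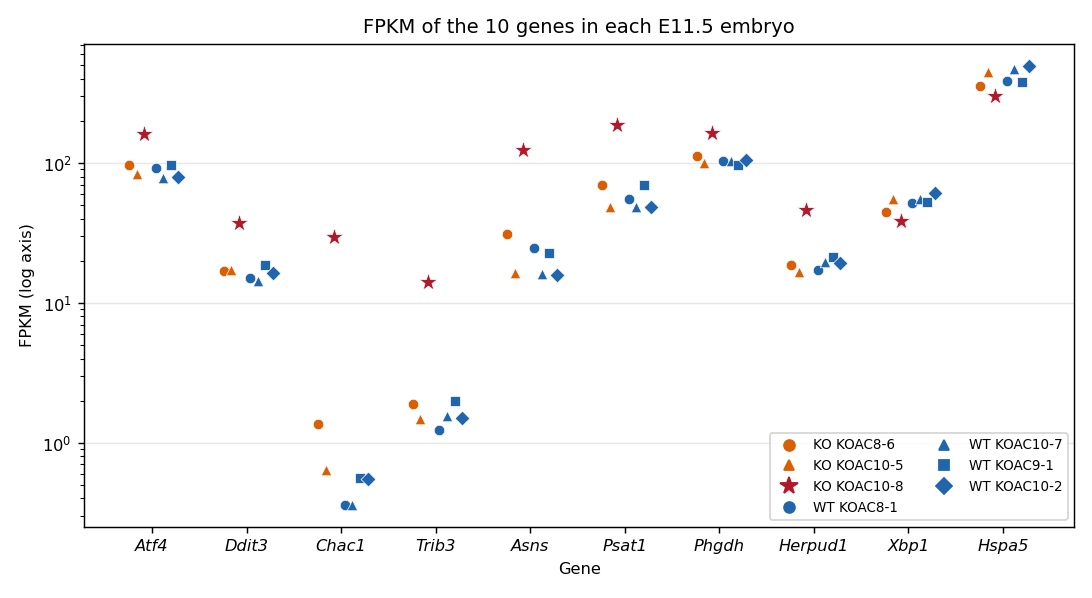
FPKM of the 10 genes (log axis) in each of 3 KO and 4 WT embryos, 1 point per embryo. KOAC10-8 (star) lies above the other 6 embryos for 8 of the 10 genes, with *Chac1* at 29.6 against at most 1.36 FPKM, and below them for *Xbp1* and *Hspa5*.

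*Atf4* (chr15:80255184-80257541, GRCm38), the central factor of the integrated stress response, was at 96.4, 83.3 and 162 FPKM in KOAC8-6, KOAC10-5 and KOAC10-8, while WT values were 92.5, 78.1, 97.0 and 79.3 FPKM in KOAC8-1, KOAC10-7, KOAC9-1 and KOAC10-2. KOAC10-8 was 1.67 times the highest other embryo, and the other 2 KO embryos lay inside the WT range. The means were 114 ± 42.4 (SD, n = 3) and 86.7 ± 9.46 FPKM (SD, n = 4). The log2 fold change was 0.34 ± 0.22 (SE; adjusted p = 0.579 in limma; exact two-sided permutation p = 0.2).

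*Ddit3* (chr10:127290774-127296288) encodes CHOP, which acts downstream of ATF4 and promotes cell death under lasting ER stress. In the same order of embryos it was at 16.8, 17.2 and 37.2 FPKM in KO and at 15.0, 14.4, 18.7 and 16.5 FPKM in WT. Again KOAC10-8 alone was high, at 1.99 times the next embryo. The means of 23.7 ± 11.7 and 16.1 ± 1.91 FPKM (SD, n = 3 and 4) gave a log2 fold change of 0.44 ± 0.27 (SE; adjusted p = 0.555 in limma; exact permutation p = 0.143). The second row of this symbol, ENSMUSG00000116429, is a single transcript of 105 bases that lies wholly within *Ddit3* (chr10:127290829-127293753), and every stretch of 50 bases in it also occurs in *Ddit3*. How reads were divided between both rows is uncertain. Its values of 19.5, 14.0 and 27.3 FPKM in KO and 0, 4.53, 12.1 and 13.7 FPKM in WT did not overlap between the groups, with an adjusted p of 0.482 in limma and an exact permutation p of 0.114. *Ddit3* also shares 68 exonic bases with *Mars* on the opposite strand, and the library kit does not keep the strand.

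*Xbp1* (chr11:5520659-5525893), whose spliced form drives ER chaperone and degradation genes, differed in the other direction. It was at 44.4, 55.1 and 38.5 FPKM in KO and at 51.4, 54.8, 52.5 and 60.7 FPKM in WT. KOAC10-8 was the lowest of all embryos, and the groups overlapped. The log2 fold change was −0.26 ± 0.12 (SE; adjusted p = 0.466 in limma; exact permutation p = 0.143). Spliced and unspliced forms were not separated in these values.

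*Chac1* (chr2:119351229-119354381) encodes a glutathione-degrading enzyme and is an ATF4 target. It was at 1.36, 0.633 and 29.6 FPKM in KO and at 0.360, 0.362, 0.561 and 0.552 FPKM in WT. KOAC10-8 exceeded the next embryo 21.8 times. All 3 KO embryos were above all 4 WT embryos, as for 5.61% of genes tested. The means were 10.54 ± 16.5 and 0.459 ± 0.113 FPKM (SD, n = 3 and 4), and the log2 fold change of FPKM + 1 was 1.75 with an SE of 0.93 and a 95% interval from −0.44 to 3.95. The exact permutation p of 0.0286 is the smallest that 35 assignments of the embryos allow, while the adjusted p in limma was 0.514. In KOAC8-6 and KOAC10-5 the gene remained near 1 FPKM, so the separation of these 2 embryos from WT rests on low values.

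*Trib3* (chr2:152337422-152344032), a pseudokinase induced by ATF4 and CHOP that dampens their activity, was at 1.90, 1.48 and 14.1 FPKM in KO and at 1.24, 1.54, 1.99 and 1.51 FPKM in WT. Apart from KOAC10-8, the embryos of both genotypes were intermixed between 1.24 and 1.99 FPKM. The log2 fold change was 0.90 ± 0.59 (SE; adjusted p = 0.582 in limma; exact permutation p = 0.2).

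The 3 enzymes of amino acid synthesis stood apart by different amounts in KOAC10-8. *Asns* (chr6:7675169-7693254), asparagine synthetase, was at 30.9, 16.3 and 124 FPKM in KO and at 24.5, 16.2, 22.9 and 15.8 FPKM in WT, so that KOAC10-8 was 4.02 times the next embryo. *Psat1* (chr19:15904678-15947337), which catalyses the second step of serine synthesis, was at 69.6, 48.1 and 187 FPKM in KO and at 55.5, 48.2, 69.7 and 48.6 FPKM in WT, a ratio of 2.68 to the next embryo. *Phgdh* (chr3:98313170-98339990), the first enzyme of that pathway, was at 113, 100 and 163 FPKM in KO and at 104, 103, 96.5 and 105 FPKM in WT, a ratio of 1.44. KOAC8-6 was above the highest WT embryo in *Asns* and *Phgdh*, and KOAC10-5 was close to WT levels in all 3 genes. The log2 fold changes were 1.00 ± 0.61 for *Asns*, 0.63 ± 0.42 for *Psat1* and 0.26 ± 0.15 for *Phgdh* (SE), with adjusted p of 0.554, 0.587 and 0.539 in limma. Part of the *Phgdh* sequence is shared with processed copies, among them Gm7901, which holds 38.3% of its stretches of 50 bases, so its level is less certain.

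The ER proteins were split. *Hspa5* (chr2:34771970-34777547), encoding BiP, the main ER chaperone and the classic readout of the unfolded protein response, was at 357, 444 and 299 FPKM in KO and at 388, 473, 379 and 494 FPKM in WT. KOAC10-8 had the lowest value of all 7 embryos, and the groups overlapped. The means were 367 ± 73.0 and 434 ± 58.4 FPKM (SD, n = 3 and 4) and the log2 fold change −0.25 ± 0.16 (SE; adjusted p = 0.558 in limma; exact permutation p = 0.2). *Herpud1* (chr8:94386438-94395377), a component of ER-associated degradation, was at 18.6, 16.5 and 45.8 FPKM in KO and at 17.2, 19.6, 21.2 and 19.4 FPKM in WT. It was 2.16 times higher in KOAC10-8 than in the next embryo. *Herpud1* was thus highest in the embryo in which *Hspa5* was lowest. *Atf4*, *Ddit3*, *Trib3*, *Psat1* and *Phgdh*, without a promoter match, were also highest in it, and *Xbp1*, without a match, was lowest. Whether the promoter matches have a part in these levels was not tested. The log2 fold change of *Herpud1* was 0.31 ± 0.32 (SE; adjusted p = 0.723 in limma; exact permutation p = 0.657).

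The differences between KO and WT embryos shrank when KOAC10-8 was left out. The log2 fold changes then were 0.05 for *Atf4*, 0.07 for *Ddit3*, 0.07 for *Trib3*, 0.20 for *Asns*, 0.08 for *Psat1* and 0.06 for *Phgdh*. *Herpud1* changed sign, to −0.13, while *Xbp1* and *Hspa5* kept theirs at −0.14 and −0.11. *Chac1* fell under the minimum of 1 FPKM and was not fitted. The plot of fold changes with and without this embryo sets both fits side by side. Leaving out KOAC10-5 instead moved the values away from 0, to 1.62 for *Asns*, 0.53 for *Atf4*, 1.04 for *Psat1*, −0.40 for *Hspa5* and −0.40 for *Xbp1*, and no member passed the adjusted threshold.

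**Figure D2:**
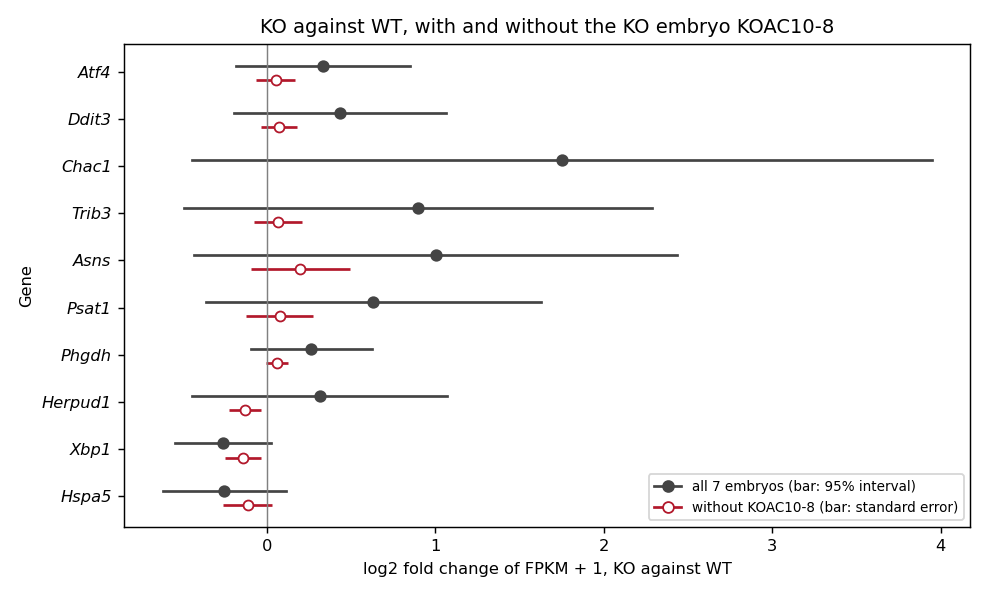
Log2 fold change of FPKM + 1 in KO against WT embryos for the 10 genes. Filled points show all 7 embryos with the 95% interval, and open points show 6 embryos without KOAC10-8 with the standard error. Every 95% interval includes 0, *Asns* moves from 1.00 to 0.20, and *Chac1* has no value without KOAC10-8.

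In the wider pathway, KOAC10-8 was high in most genes tied to ATF4 and low in many ER chaperone genes. Of 122 other genes of these responses, 0 passed the adjusted threshold of 0.05 in limma. At an unadjusted p under 0.05, 7 were higher and 10 lower in KO embryos, against 11.5% of all genes in either direction. In KOAC10-8, 30 of the 122 genes were at least 1.5 times every other embryo, against 0.497% of all genes. The lists were drawn up with earlier results of these data known.

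The list of ATF4-dependent amino acid and stress genes held 22 tested genes, and 18 of them were at least 1.5 times higher in KOAC10-8 than in every other embryo. Their median in KOAC10-8 was 1.45 higher than the median of the other embryos on the log2 scale, against 0.03 for all genes. *Sesn2*, which restrains mTORC1 signalling, was at 7.70, 4.07 and 44.9 FPKM in KO and at 4.52, 3.62, 4.37 and 4.14 FPKM in WT. The cationic amino acid transporter gene *Slc7a3* was at 1.78, 0.622 and 21.5 FPKM in KO and at most at 0.809 FPKM in WT. The mitochondrial folate enzymes *Mthfd2* and *Shmt2* reached 107 and 170 FPKM in KOAC10-8, 3.39 and 2.55 times the next embryo. *Psph*, which completes serine synthesis, was at 29.3 FPKM in KOAC10-8 and at 10.6 to 11.9 FPKM in the others. *Slc1a5*, a glutamine transporter gene, had the lowest log2 fold change of the list, −0.15, and KOAC10-8 was not its highest embryo.

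In the other 2 KO embryos the same list was less uniform. KOAC8-6 had the highest value of the remaining 6 embryos in 14 of the 22 genes and KOAC10-5 in 5 of them, against 21.9% and 14.0% of all genes. In 8 of the 22 genes all KO embryos were above all WT embryos, against 5.61% of all genes. This count includes KOAC10-8, the highest embryo in 20 of the 22. With KOAC10-8 left out, both other KO embryos were above all WT embryos in 8 genes, against 1328 of all 16095 genes. *Ddit4*, another inhibitor of mTORC1 signalling, was at 58.8, 65.4 and 55.6 FPKM in KO and at 42.2, 36.0, 35.4 and 40.7 FPKM in WT. Here all 3 KO embryos were alike and KOAC10-8 was the lowest of them. *Ddit4* differed by 0.62 ± 0.09 on the log2 scale (SE; adjusted p = 0.165 in limma). *Stc2*, encoding a secreted glycoprotein, was at 2.18, 1.51 and 8.54 FPKM in KO and at 0.982 to 1.19 FPKM in WT. *Slc38a2*, an amino acid transporter gene regulated by amino acid supply, was at 91.3 and 78.2 FPKM in KOAC8-6 and KOAC10-5, 1.20 times higher in KOAC10-8 than in KOAC8-6, and at 73.6 to 77.7 FPKM in WT. Neither passed the adjusted threshold, with an adjusted p of 0.430 in limma for *Stc2* and a lower one for *Slc38a2*. Without KOAC10-8, the median log2 fold change of the list was 0.17, against 0.61 with it.

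Among other stress transcription factors, *Atf3*, a factor induced by ATF4, was at 2.16, 1.62 and 7.45 FPKM in KO and at 0.945 to 1.51 FPKM in WT (log2 fold change 0.91 ± 0.38 SE; adjusted p = 0.432 in limma). The groups did not overlap, and KOAC10-8 was 3.45 times the next embryo. Of the 7 factors tested, 2 were at least 1.5 times higher by FPKM + 1 in KOAC10-8 than elsewhere, *Atf3* and *Atf5*. *Nupr1*, at 1.94 FPKM in KOAC10-8 and at most at 1.20 FPKM elsewhere, exceeded that fold only by FPKM. *Nfe2l2*, which drives the antioxidant response, was at 15.4 FPKM in KOAC10-8, within the range of the other embryos.

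**Figure D3:**
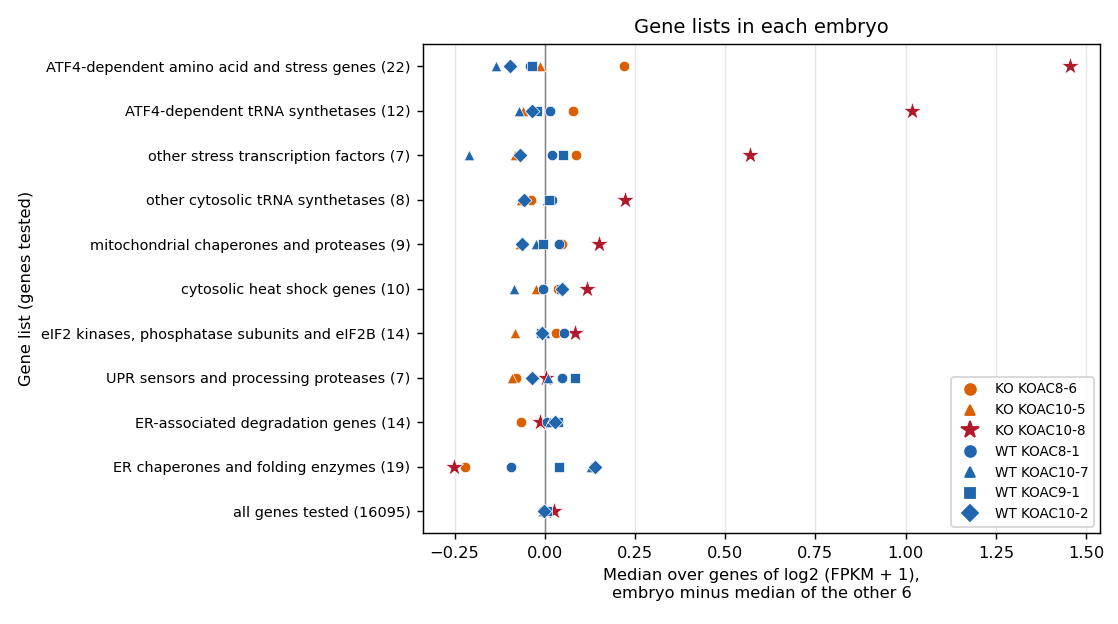
For each gene list, the median over its tested genes of log2(FPKM + 1) in 1 embryo minus the median of the other 6 embryos, 1 point per embryo. KOAC10-8 (star) is at 1.45 for ATF4-dependent amino acid and stress genes and at 1.02 for ATF4-dependent tRNA synthetases. It is the lowest embryo for ER chaperones, at −0.25, and KOAC8-6 is at −0.22.

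The aminoacyl-tRNA synthetases, which charge tRNAs with amino acids, were described by their known link to ATF4, in lists whose difference was not tested. In the 12 cytosolic synthetase genes known as ATF4 targets, KOAC10-8 was the highest embryo for all 12, and at least 1.5 times every other embryo for 9. *Cars*, for cysteine, led with 120 FPKM in KOAC10-8 against at most 46.2 FPKM, and *Wars*, for tryptophan, came last with 51.5 FPKM against at most 46.6 FPKM. In the 8 other cytosolic synthetase genes, none reached 1.5 times every other embryo, although KOAC10-8 was the highest embryo for 7. Over all genes tested, KOAC10-8 was highest in 26.4% and reached that fold in 0.497%. *Vars*, for valine, was at 107 FPKM in KOAC10-8 against at most 86.0 FPKM, above the ratio of *Wars*, and *Hars*, for histidine, was not highest in KOAC10-8. The medians of KOAC10-8 over the other embryos were 1.02 and 0.22 on the log2 scale. A CARE was present in 3 of 8 promoters found for the first list (37.5%) and in 0 of 5 for the second. The 3 were those of *Aars*, *Gars* and *Tars*. For the ATF4-dependent amino acid and stress genes it was present in 5 of 21 (23.8%), against 3.45% of all promoters. Whether the motif has a part in these levels was not tested. The median log2 fold changes of KO against WT were 0.36 and 0.05 with KOAC10-8, and 0.03 and −0.02 without it.

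**Figure D4:**
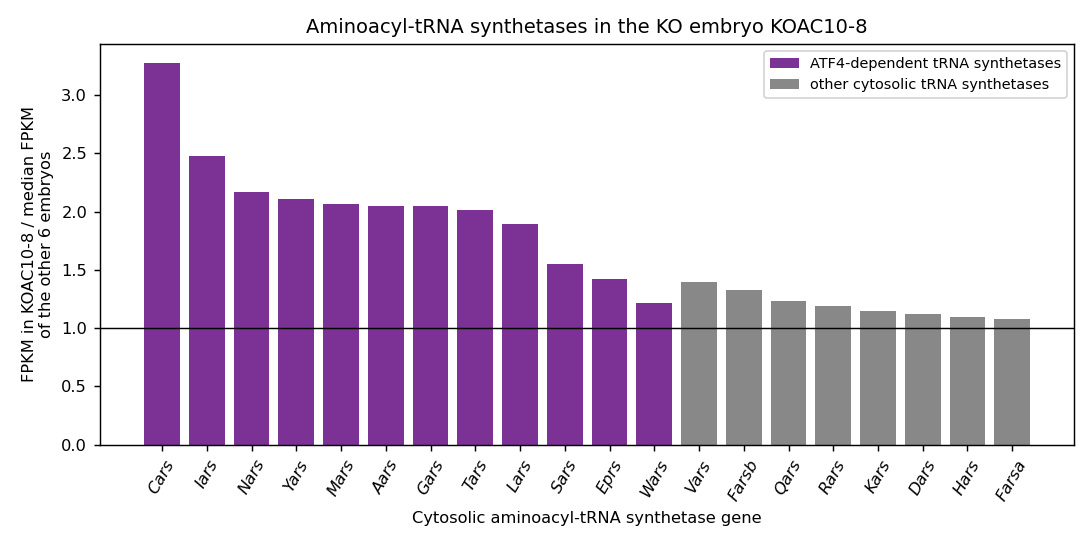
FPKM in the KO embryo KOAC10-8 divided by the median FPKM of the other 6 embryos, for 12 cytosolic tRNA synthetase genes known as ATF4 targets and 8 others. The line marks a ratio of 1. The first list runs from 1.21 for *Wars* to 3.27 for *Cars* and the second from 1.08 for *Farsa* to 1.39 for *Vars*.

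The sensors and the eIF2 branch upstream showed no such shift as lists in KOAC10-8. Their medians over the other embryos were 0.002 and 0.08 on the log2 scale, against 0.03 for all genes. *Eif2ak3*, encoding PERK, was at 9.06, 7.93 and 7.52 FPKM in KO and at 8.37 to 9.02 FPKM in WT. *Ern1*, encoding IRE1, was at 3.90 to 4.51 FPKM in KO and at 3.85 to 4.53 FPKM in WT. *Atf6* was at 5.44 to 6.10 FPKM in KO and at 5.51 to 6.17 FPKM in WT. *Ppp1r15a*, the inducible subunit of the eIF2 phosphatase and itself an ATF4 target in other settings, was at 9.56, 8.51 and 11.1 FPKM in KO and at 9.76 to 13.1 FPKM in WT. Its level in KOAC10-8 was thus inside the WT range. Among 14 genes of eIF2, its kinases, phosphatase subunits and eIF2B, *Eif2s2* alone was at least 1.5 times higher in KOAC10-8 than in every other embryo. *Ppp1r15b*, the other phosphatase subunit gene, was also highest in KOAC10-8, at 31.6 against at most 23.2 FPKM. *Eif2s3x* was at 76.4 FPKM in KOAC10-8 and at 68.1 to 117 FPKM in the others. In the list of sensors and processing proteases, 4 of 7 tested genes had an unadjusted p under 0.05, against 11.5% of all genes. In 3 of the 7 all KO embryos were below all WT embryos, against 5.98% of all genes. In 1 they were above, against 5.61%. *Creb3l1* and *Creb3l2*, ATF6-like factors of secretory cells, had log2 fold changes of −0.41 and −0.26, and the proteases *Mbtps1* and *Mbtps2*, which cleave ATF6, of −0.15 and 0.16 (adjusted p from 0.347 to 0.418 in limma).

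ER chaperones and folding enzymes had slightly lower values in KO embryos, without passing the adjusted threshold. Of 19 genes tested, 16 had a negative log2 fold change, with a median of −0.18 against 0.01 for all genes. At an unadjusted p under 0.05, 7 were lower and 1, *Ero1l*, was higher, against 997 lower and 849 higher of all 16095 genes. In 5 genes all KO embryos were below all WT embryos, against 5.98% of all genes. *Sec61b*, a subunit of the ER translocon, was at 167, 173 and 179 FPKM in KO and at least at 192 FPKM in WT (log2 fold change −0.18 ± 0.04 SE; adjusted p = 0.286 in limma). *Selenos*, an ER membrane selenoprotein, and *P4hb*, a disulfide isomerase, had log2 fold changes of −0.23 and −0.19 (adjusted p = 0.293 and 0.312). *Calr*, the lectin chaperone calreticulin, was at 402, 479 and 382 FPKM in KO and at 465 to 543 FPKM in WT. *Dnajb9*, a BiP cochaperone, was at 6.29 to 7.22 FPKM in KO and at 7.25 to 8.76 FPKM in WT. *Hsp90b1*, the ER paralogue of HSP90, overlapped between groups, at 344 to 377 and 351 to 407 FPKM.

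Without KOAC10-8, most of the lowest chaperone values were those of KOAC8-6. The median log2 fold change was then −0.13, and KOAC8-6 was the lowest of the remaining 6 embryos in 15 of the 19 genes, against 22.1% of all genes. KOAC10-5 was the lowest in 0 of them, with a median of 0.04 relative to the other embryos. In 5 of the 19 genes, however, KOAC8-6 and KOAC10-5 were both below all WT embryos, against 1558 of all 16095 genes. In 1 gene both were above, against 1328. The genes lower at an unadjusted p under 0.05 went from 7 to 4, against 720 of 16029 genes without KOAC10-8. KOAC10-8 itself was the lowest of all 7 in 10 of the 19 genes, against 19.1% of all genes. Its median was −0.25 relative to the other embryos, and that of KOAC8-6 was −0.22. An ERSE was present in 7 of 17 promoters found for this list (41.2%), against 0.113% of all promoters. Its part in these levels was not tested. For 14 ER-associated degradation genes the median log2 fold change was −0.04, and *Herpud1*, a member of the same machinery, was not among them.

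Levels of *Hspa5* and of several other members moved with liver transcripts across embryos. Leaving KOAC10-8 aside, the 3 embryos with high *Afp* had *Hspa5* between 357 and 388 FPKM, and the 3 with low *Afp* between 444 and 494 FPKM. *Xbp1* was likewise lower with high *Afp*, at 44.4 to 52.5 against 54.8 to 60.7 FPKM. *Atf4* was higher with high *Afp*, at 92.5 to 97.0 against 78.1 to 83.3 FPKM. *Asns* was at 22.9 to 30.9 FPKM with high *Afp* and at 15.8 to 16.3 FPKM with low *Afp*, and *Psat1* at 55.5 to 69.7 and 48.1 to 48.6 FPKM. Both genotypes were present on each side. All 3 embryos with low *Afp* carry the prefix KOAC10 in their names and the other 3 KOAC8 or KOAC9, so that *Afp* and the prefix cannot be told apart among these 6. The prefix is not explained in the labels. The ranges of *Ddit3*, *Trib3*, *Chac1*, *Phgdh* and *Herpud1* overlapped. KOAC10-8 had high *Afp* (308 FPKM) and exceeded the other embryos with high *Afp* in *Atf4* and *Asns*. With *Afp* as a covariate, the log2 fold change of *Hspa5* went from −0.25 to −0.17, of *Xbp1* to −0.21, of *Asns* to 0.78 and of *Chac1* to 1.56, and the median of the ER chaperones from −0.18 to −0.14. The scatter of *Atf4*, *Asns* and *Hspa5* against *Afp* shows the 2 sets of embryos.

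**Figure D5:**
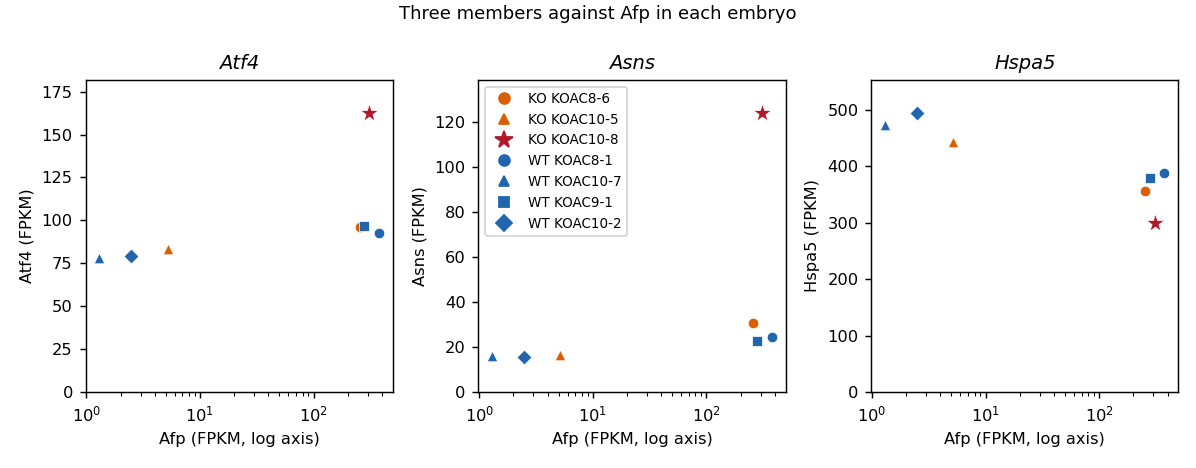
FPKM of *Atf4*, *Asns* and *Hspa5* against FPKM of *Afp* (log axis) in each embryo, 1 point per embryo. The 3 embryos with *Afp* at 5.18 FPKM or less have higher *Hspa5* (444 to 494 FPKM) than the other 4, and KOAC10-8 (star) is apart from the rest in *Atf4* and *Asns*.

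Other stress responses differed less in KOAC10-8. The 9 mitochondrial chaperone and protease genes and the 10 cytosolic heat shock genes tested held none that was 1.5 times every other embryo, with medians of 0.15 and 0.12 over the other embryos on the log2 scale, against 0.03 for all genes. KOAC10-8 was nevertheless the highest embryo in 8 of the 9 mitochondrial genes, against 26.4% of all genes. Among them was *Hspa9*, encoding the chaperone mortalin, at 1.30 times the next embryo. In the heat shock list another KO embryo, KOAC10-5, was highest in 3 and lowest in 2 of the 10 genes. Over all genes tested it was highest in 10.3% and lowest in 12.8%. *Hspa1b*, an inducible HSP70 gene, was at 6.21 FPKM in KOAC10-5 and at most at 1.89 FPKM elsewhere, and *Hspa8*, the constitutive HSC70 gene, at 1613 FPKM in KOAC10-5 and at most at 1149 FPKM elsewhere. *Hsp90aa1* had the smallest p of that list, differing by 0.19 on the log2 scale (adjusted p = 0.421 in limma). In KOAC10-8 the share of mitochondrially encoded transcripts was 8.81% of the FPKM sum, the highest of the embryos, which ranged from 5.84%. Its relative depth of 1.08 lay within the range of the others. Its FPKM sum over all genes, 861448, was the highest, against 770063 to 813357 in the others. Its summed FPKM of 8 skeletal muscle markers was the lowest, 234 against 288 to 570. Whether these properties have a part in the levels of the ATF4 genes was not tested.

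Some pairs of members remained strongly correlated without KOAC10-8, and others did not. Pearson's r of log2(FPKM + 1) between *Atf4* and *Asns* was 0.99 over the 7 embryos and 0.91 over the 6 without KOAC10-8, between *Hspa5* and *Xbp1* 0.95 and 0.89, and between *Atf4* and *Hspa5* −0.92 and −0.97. Between *Ddit3* and *Asns* it was 0.93 and fell to 0.21, and between *Chac1* and *Herpud1* it was 0.96 and then −0.03. For the genes of the pairs that remained correlated, r with *Afp* was also computed over the 6 embryos. It was 0.97 for *Atf4*, 0.92 for *Asns*, −0.95 for *Hspa5* and −0.73 for *Xbp1*. Among the genes whose levels over the 7 embryos were most like those of *Ddit3* were *Nek3*, *Hnrnpa2b1*, *Rmi2* and *Tyw1* (r from 0.989 to 0.993). For *Hspa5* they were *Pdlim4*, *Clcn4*, *Wdr34*, *Hs2st1* and *Lonrf2* (r from 0.974 to 0.989). These are descriptions over 7 embryos that include KOAC10-8 and differ in liver transcripts.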

How the data were processed

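RNA of 3 KO and 4 WT whole E11.5 embryos was sequenced from TruSeq RNA v2 libraries, and groups were taken from the genotype labels. The submitters' processing notes name Salmon, DESeq2, MultiQC and the build GRCm38, with no versions or roles. The authors deposited FPKM values per gene and embryo, and 0 FPKM columns lacked an embryo. The deposited table also holds the authors' own comparison, which was not used: a mean signal over embryos, a log2 fold change, its standard error (recorded as a score), and a p-value with its adjusted form.

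The 10 members and all gene lists were chosen with earlier results of these data known. Besides the members and *Slmap*, 12 pathway genes were always named, together with up to 3 genes per list and direction with the smallest unadjusted p under 0.05, genes at the ends of a list's range of log2 fold changes, *Afp*, and the 5 genes most correlated with *Ddit3* and with *Hspa5*, of which 1 is not reported here. *Atf5*, *Hspa8*, *Farsa* and the genes named for KOAC10-8 alone were chosen after their values were seen. Of 181 listed genes, 1 had no row.

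Genes averaging 1 FPKM or more were tested with limma 3.58.1 in R 4.3.3 (lmFit, eBayes with trend) on log2(FPKM + 1), with Benjamini-Hochberg adjustment over 16095 genes. Fold changes on this scale understate those of low genes. The fit was tested on simulated data. Single members were also compared by an exact two-sided permutation test over 35 assignments, using Python 3.11.15. The p-values measure the spread between embryos, whose litters are not given. The median ratios of the FPKM values were equal across embryos. Alternatives were other pseudocounts, filters, scalings, covariates and variance models, the prefix of the embryo names as a block, and each embryo left out. Coordinates are from GENCODE M21 (GRCm38).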

Additional observations from a re-analysis of the deposited data

Results flagged for a closer look

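Within the 4 WT embryos, 3 of 37 genes examined had 1 embryo far from the other 3, by the gap to the nearest embryo divided by the range of the group. Chance alone is expected to give about 1 in 20. *Phgdh* had a ratio of 0.862, with KOAC9-1 lowest at 96.5 FPKM and the next embryo at 103 FPKM. *Dnajb9* had a ratio of 0.933, with KOAC8-1 lowest at 7.25 FPKM against 8.66 FPKM. *Mbtps1* had a ratio of 0.892, with KOAC10-7 highest at 71.7 FPKM against 65.8 FPKM. Groups of 3, and so the KO embryos, were not examined in this way.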

How the results depend on the processing

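Across 19 alternatives, of which the sum of rows per gene symbol was added after the data were seen, no member and no other pathway gene passed the adjusted threshold. Genes called across the table numbered 6, and 10 with *Afp* as a covariate. Leaving out each embryo in turn gave 7 to 12, the highest without the WT embryo KOAC8-1. Over the alternatives, adjusted p ranged from 0.292 to 0.924 for *Atf4*, from 0.360 to 0.878 for *Ddit3*, from 0.263 to 0.693 for *Chac1*, from 0.232 to 0.882 for *Asns* and from 0.260 to 0.866 for *Hspa5*. *Xbp1* had the lowest adjusted p of any member over the alternatives, 0.184 in limma without KOAC10-5. The log2 fold change of *Herpud1* ran from −0.13 without KOAC10-8 to 0.58 without KOAC10-5, and no other member reversed. *Chac1* could not be fitted without KOAC10-8, nor could *Chac1* and *Trib3* at a minimum mean of 5 FPKM. With the prefix of the embryo names as a block, adjusted p of the 11 member rows ran from 0.569 to 0.756. With 3 and 4 embryos the exact test cannot go below 0.0286. *Chac1* and *Slc7a3* were under 1 FPKM in several embryos, where few fragments stand behind each value.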

Other observations

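Among the 80 genes that KOAC10-8 had at least 1.5 times above every other embryo, 37 rows belonged to the members or to the lists of these responses, and 17 of the 20 with the largest gap did. The other 3 of those 20 were *Gm29394*, *Jdp2* and *Pck2*, named after their values were seen. Of the 16095 genes tested, 11 were member rows and 122 were other genes of these lists. Members and lists were chosen with earlier results of these data known. *Jdp2*, which encodes a bZIP partner of the AP-1 family, was at 22.7 FPKM in KOAC10-8 and at most at 7.58 FPKM elsewhere. *Pck2*, the mitochondrial phosphoenolpyruvate carboxykinase, was at 50.9 FPKM and at most at 18.8 FPKM elsewhere. In the opposite direction, 77 genes of KOAC10-8 were lower than in every other embryo by the same fold, against 27 to 49 in each of the other embryos.

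Summing both *Ddit3* rows gave a log2 fold change of 0.85 ± 0.33 (SE) in KO against WT embryos, against 0.44 for the main row alone. The adjusted p of the sum was 0.404 in limma. The short row was listed at 0 in the WT embryo KOAC8-1, in which the main row was at 15.0 FPKM. Without KOAC8-1 the log2 fold change of the short row went from 1.85 to 1.01.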
